A study of Mus musculus with 9 samples.

Results

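The T-cell receptor gamma locus of the mouse lies on chromosome 13 (GRCm38) and encodes the gamma chain of the gamma-delta T-cell receptor. The gene tables hold 15 of its features among 50686 genes, between positions 19178024 and 19352756, a span of 174.7 kb. The 7 described here are the constant genes Trgc1, Trgc2 and Trgc4, the joining segments Trgj1, Trgj2 and Trgj4 and the variable segment Trgv2. They were chosen by their read numbers and their differences between the genotypes in these same libraries, so their values are a description, no p-value is given for them, and calls on them support nothing. They held between 99.13% and 99.86% of the reads on the locus in each library.

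RNA-seq was run on cell lines named BCR/ABLp185+, made from the bone marrow of mice on a C57BL/6N background by infection with a retrovirus that carries the BCR/ABLp185 oncogene, a constitutively active tyrosine kinase. The 3 genotypes were wt, Stat5a-/- (donor mice without STAT5A) and Stat5b-/- (donor mice without STAT5B), and all 3 lines carried the oncogene and grew in RPMI with fetal calf serum. There was 1 line of each genotype in 3 technical replicates, 9 libraries in all, so differences are between 3 lines and cannot be told apart from differences between any independently transformed lines. The study's animal experiments used young adult mice, and the age and sex of the donors of these 3 lines are not stated. Per the study, Stat5b-deficient lines took longer after infection to grow out than Stat5a-deficient or wt lines, so time to outgrowth and genotype cannot be told apart. The study also reports that lines without STAT5A or STAT5B needed more BCR/ABL. The oncogene level and the genotype therefore cannot be told apart either. The libraries were made from polyadenylated RNA and held between 11948136 and 19016396 reads on genes. Counts of the 3 libraries of a line gave a chi-square between 16.4 and 21.3 per degree of freedom. The libraries of a line thus differed by more than counting error. The value pools the 3 libraries, so it does not show this for each pair.

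In a gamma-delta T-cell precursor the RAG recombinase joins a variable to a joining segment, and splicing then attaches the constant gene of the same cluster. Before that step the unrearranged joining segments and constant genes are transcribed from promoters upstream of the joining segments. Signals of the interleukin-7 receptor, carried by STAT5A and STAT5B, are known to open this locus and to start this germline transcription in T-cell precursors. Trgj1 and Trgc1, Trgj2 and Trgc2, and Trgj4 and Trgc4 each belong to 1 cluster. Trgj2, Trgc2 and Trgv2 lie on the minus strand, the other 4 segments on the plus strand. Counts per gene do not separate rearranged from germline transcripts.

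The joining segments and the constant genes are near-copies of each other, and the reads were 50 bases long, so their sequences show how far the counts of 1 segment can be separated from those of the next. They are given 5′ to 3′ on the coding strand from the GENCODE M21 transcripts of GRCm38. Capitals mark bases that differ from Trgj1 in an alignment of the pair. The positions are chr13:19210343-19210402 for Trgj1, chr13:19311245-19311304 for Trgj2, chr13:19257117-19257176 for Trgj3 and chr13:19342152-19342212 for Trgj4.
Trgj1: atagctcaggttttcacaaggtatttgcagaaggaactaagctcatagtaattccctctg
Trgj2: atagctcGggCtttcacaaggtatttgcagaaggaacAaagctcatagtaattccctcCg
Trgj3: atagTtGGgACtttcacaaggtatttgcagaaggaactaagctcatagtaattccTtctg
Trgj4: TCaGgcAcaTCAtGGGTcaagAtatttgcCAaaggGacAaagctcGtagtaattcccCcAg
Trgj1 and Trgj2 shared 56 of 60 bases and differed by A8G, T11C, T38A and T59C, counted from 1 at the 5′ end of Trgj1. Trgj4 was identical to Trgj1 in 42 of 61 aligned columns. No 50-base stretch of a joining segment occurred in the transcripts of another gene. A 50-base read fits inside Trgj1, Trgj2 or Trgj3 at 11 positions, and all other reads on them run over an edge. The authors' counting dropped a read that lay on 2 annotated genes, as a read spliced from a joining segment to its constant gene does.

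The constant genes encode the part of the chain shared by all receptors of a cluster. Their opening 90 bases, where a joining segment is spliced on, are given with capitals for bases that differ from Trgc1. The genes lie at chr13:19214103-19217024 (Trgc1), chr13:19304649-19307551 (Trgc2), chr13:19260884-19263528 (Trgc3) and chr13:19344558-19352756 (Trgc4).
Trgc1: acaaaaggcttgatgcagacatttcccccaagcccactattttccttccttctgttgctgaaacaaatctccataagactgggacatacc
Trgc2: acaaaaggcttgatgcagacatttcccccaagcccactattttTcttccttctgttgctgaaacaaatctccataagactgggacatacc
Trgc3: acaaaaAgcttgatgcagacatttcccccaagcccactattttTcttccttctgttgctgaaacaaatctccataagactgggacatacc
Trgc4: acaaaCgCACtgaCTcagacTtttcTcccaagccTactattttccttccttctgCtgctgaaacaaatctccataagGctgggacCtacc
In this stretch Trgc1 and Trgc2 differed only by C44T, counted from 1 at the start of Trgc1, and over the whole transcripts they were 94.1% identical. Trgc4 was 64.1% identical to Trgc1. Of all 50-base stretches, 34.2% of Trgc1, 25.4% of Trgc2 and 39.5% of Trgc3 also occurred in another constant gene of the locus, and such reads were left out of the deposited counts because they map to several places. Counts of Trgc1, Trgc2 and Trgc3 are therefore less certain than those of Trgc4, which shared no stretch.

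Across the genotypes the clusters did not differ alike. Reads of Trgv2 and of the Trgc4 cluster were the most reduced in both knockout lines, Trgc2 was close to its wt level in Stat5a-/- and lower in Stat5b-/-, and Trgc1 was higher than wt in Stat5a-/- and lower in Stat5b-/-. In the following, levels are CPM (counts scaled to a common library total after TMM normalization) as mean ± SD over the 3 libraries of a line, and log2 fold changes with their standard error (SE) come from edgeR's quasi-likelihood fit over all 9 libraries.

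**Figure D1:**
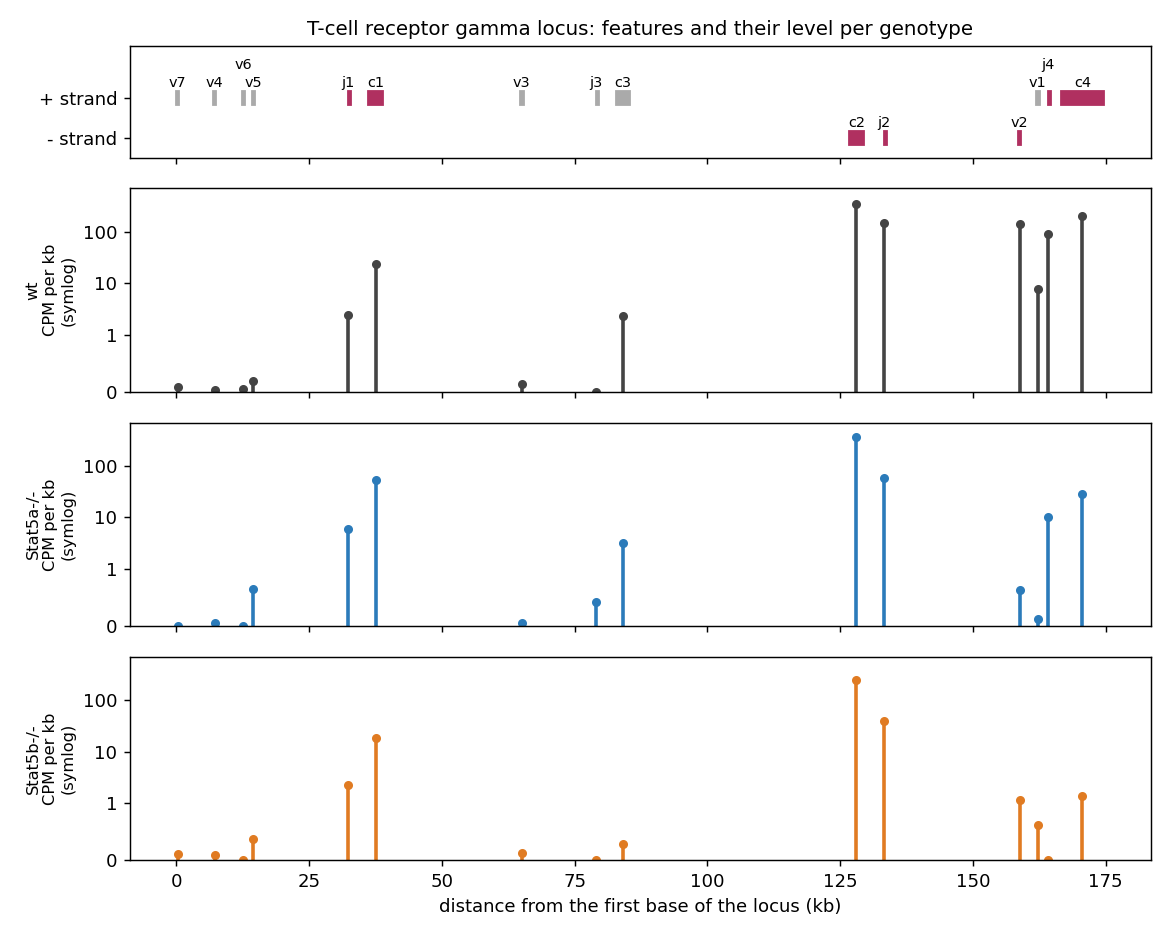
Features of the gamma locus by distance in kb from its first base, on both strands and named without the prefix Trg (top, the 7 described segments in red, the others in grey, short segments widened to be visible), and below their mean level in each genotype as CPM per kb of possible read starts (symlog axis, linear below 1, n = 3 libraries). The highest levels lie at Trgc2, Trgc4, Trgj2, Trgv2 and Trgj4 in wt, while in Stat5b-/- the level of Trgj4 is 0.

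Trgc4, the constant gene at the distal end of the locus, had 3247, 4264 and 3769 reads in the wt libraries, 394, 436 and 264 in the Stat5a-/- libraries and 21, 23 and 17 in the Stat5b-/- libraries. The corresponding levels were 213 ± 6.16 CPM, 28.9 ± 5.96 CPM and 1.44 ± 0.139 CPM. The 3 lines did not overlap, and their order was the same from wt over Stat5a-/- to Stat5b-/-. The log2 fold change was -2.88 (SE 0.13) in Stat5a-/- against wt, -7.20 (SE 0.18) in Stat5b-/- against wt and -4.32 (SE 0.18) in Stat5b-/- against Stat5a-/-.

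Trgc2, the constant gene with the most reads in every library, had 4830, 7059 and 5892 reads in wt, 5151, 4946 and 3142 in Stat5a-/- and 3156, 3166 and 3606 in Stat5b-/-. Its levels were 334 ± 25.5 CPM, 349 ± 60.4 CPM and 236 ± 33.7 CPM. Stat5a-/- and wt libraries overlapped, whereas all Stat5b-/- libraries lay below both other lines on the normalized scale. The log2 fold change was 0.06 (SE 0.14) in Stat5a-/- and -0.50 (SE 0.14) in Stat5b-/- against wt, and -0.56 (SE 0.14) between the knockout lines.

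Trgc1, the constant gene of the proximal cluster, had 346, 482 and 391 reads in wt, 809, 725 and 453 in Stat5a-/- and 206, 292 and 246 in Stat5b-/-. Its levels were 23.0 ± 1.24 CPM, 52.1 ± 9.85 CPM and 17.6 ± 3.08 CPM. After scaling for depth every Stat5a-/- library was above, and every Stat5b-/- library below, the wt libraries. The log2 fold change was 1.18 (SE 0.16) in Stat5a-/- against wt, -0.38 (SE 0.16) in Stat5b-/- against wt and -1.57 (SE 0.16) between the knockout lines. For each read on Trgc2 there were more reads on Trgc1 in Stat5a-/- than in the other lines, with 14.9 ± 0.685 Trgc1 reads per 100 Trgc2 reads (SD, n = 3) against 6.88 ± 0.267 in wt and 7.52 ± 1.48 in Stat5b-/-.

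Trgj4, the joining segment of the Trgc4 cluster, had 116, 258 and 171 reads in wt, 19, 21 and 4 in Stat5a-/- and 0 in each of the Stat5b-/- libraries. Its level was 10.1 ± 2.84 CPM in wt and 1.13 ± 0.695 CPM in Stat5a-/-, a log2 fold change of -3.12 (SE 0.37). For the Stat5b-/- line 0 of 41601413 reads allow up to 3 reads over its libraries, which puts Trgj4 at least 145.5-fold lower than in wt (545 reads in all) and at least 16.48-fold lower than in Stat5a-/- (44 reads in all). The limit covers counting error only. No library of either knockout line reached the wt range.

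Trgj2 had 288, 325 and 261 reads in wt, 87, 107 and 49 in Stat5a-/- and 41, 58 and 77 in Stat5b-/-. The levels were 16.6 ± 1.61 CPM, 6.40 ± 2.16 CPM and 4.21 ± 1.54 CPM. Both knockout lines lay below wt in every library and overlapped each other. The log2 fold change was -1.37 (SE 0.24) in Stat5a-/- and -1.98 (SE 0.25) in Stat5b-/- against wt, and -0.62 (SE 0.27) between the knockout lines.

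Trgj2 thus differed from wt in the Stat5a-/- line, where its constant gene Trgc2 overlapped with wt. There were 4.999 ± 0.839 Trgj2 reads per 100 Trgc2 reads in wt (SD, n = 3), 1.80 ± 0.318 in Stat5a-/- and 1.76 ± 0.423 in Stat5b-/-, and the range of the wt libraries, 4.43 to 5.96, lay above both others. The Trgj4 reads per 100 Trgc4 reads were 4.72 ± 1.25 in wt and 3.72 ± 1.91 in Stat5a-/-, which overlapped.

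Trgj1, the joining segment of the Trgc1 cluster, was the lowest of the 7 in wt. It had 3, 6 and 5 reads in wt, 10, 10 and 5 in Stat5a-/- and 2, 2 and 6 in Stat5b-/-. In all, Trgv2 had fewer reads in Stat5a-/- and Trgj4 fewer in Stat5b-/-. It did not pass the filter on low counts, so the 6 other segments were in the fit. Its levels were 0.261 ± 0.0613 CPM, 0.655 ± 0.186 CPM and 0.244 ± 0.185 CPM. The Stat5a-/- libraries lay above wt, and Stat5b-/- overlapped with wt. Per 100 Trgc1 reads there were 1.13 ± 0.229, 1.24 ± 0.138 and 1.37 ± 0.941 Trgj1 reads in the 3 lines in the same order (SD, n = 3), with overlapping ranges.

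Trgv2, the variable segment upstream of Trgj2, was abundant in the wt line alone. It had 1106, 1750 and 1277 reads in wt, 10, 3 and 1 in Stat5a-/- and 10, 9 and 7 in Stat5b-/-. The levels were 77.4 ± 9.64 CPM, 0.345 ± 0.317 CPM and 0.611 ± 0.0763 CPM. The knockout lines lay below every wt library and overlapped each other, with log2 fold changes of -7.68 (SE 0.27) in Stat5a-/- and -6.96 (SE 0.25) in Stat5b-/- against wt and 0.72 (SE 0.50) between them. Without Stat5a-/- replicate 1, which held 10 of the 14 reads of that line, these were -8.78 in Stat5a-/- against wt and 1.80 between the knockout lines. Against the constant gene on the same strand, Trgv2 had 23.1 ± 1.57 reads per 100 Trgc2 reads in wt (SD, n = 3), 0.0955 ± 0.0866 in Stat5a-/- and 0.265 ± 0.0636 in Stat5b-/-. Only 7.01% of its 50-base stretches also occur in Trgv1 or Trgv3.

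**Figure D2:**
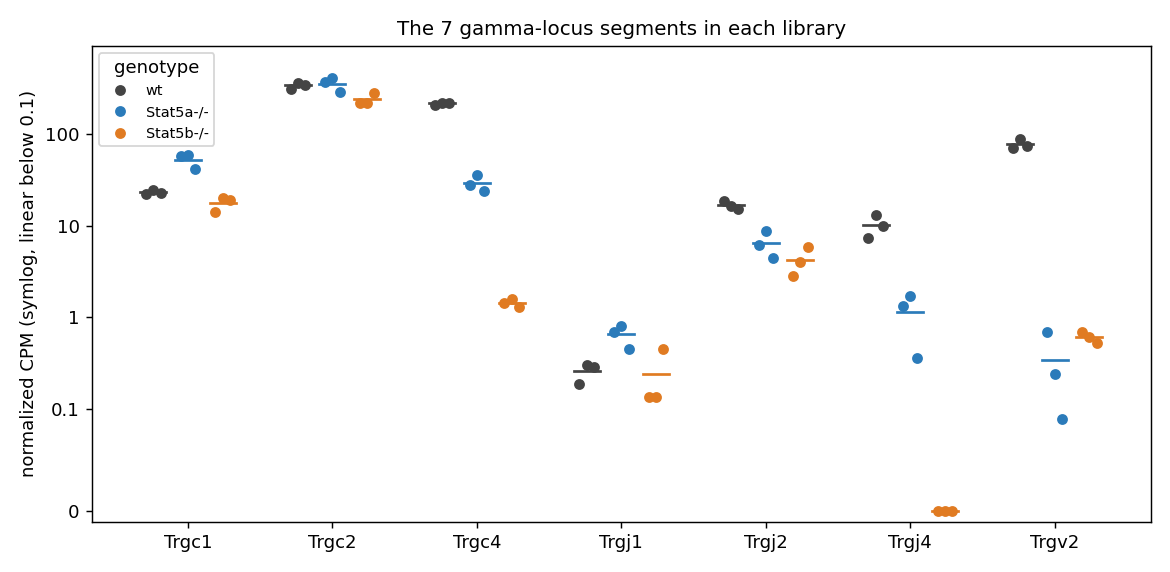
Normalized CPM of the 7 segments (symlog axis, linear below 0.1), with 1 point per library and a bar at the mean of each genotype. Trgc4, Trgj4 and Trgv2 show the widest gaps between wt and the knockout lines, and the Trgc2 libraries of wt and Stat5a-/- overlap.

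Of the 7 segments, 1 was higher (Trgc1) and 4 were lower (Trgj2, Trgv2, Trgj4 and Trgc4) in Stat5a-/- than in wt past an absolute log2 fold change of 1 and a Benjamini-Hochberg adjusted p of 0.05 in edgeR, where 7.75% of the 13852 genes tested were higher and 6.49% lower. In Stat5b-/- against wt the same 4 segments were lower past both limits, where 8.44% of all tested genes were lower and 10.6% higher. In Stat5b-/- against Stat5a-/- 3 segments were lower (Trgc1, Trgj4 and Trgc4), where 6.6% of all tested genes were lower and 4.81% higher. Since the segments were selected on these differences, these counts only say where they fall under the limits used for all genes, and nothing is read from them against the background. Both comparisons with wt share the wt libraries.

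Summed over the 7 segments the locus had 674.8 ± 42.1 CPM in wt, 438.3 ± 78.6 CPM in Stat5a-/- and 259.9 ± 36.2 CPM in Stat5b-/-. The ranges of the lines did not overlap. On the log2 scale the ratio of the means was -0.62 (SE 0.164) in Stat5a-/- and -1.38 (SE 0.124) in Stat5b-/- against wt. In these bulk libraries fewer cells with transcripts of the locus and less RNA per cell cannot be told apart.

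The make-up of these reads also differed between the lines. In wt 52.0% ± 0.43 of the segment reads came from Trgc2 with Trgj2, 33.1% ± 0.995 from Trgc4 with Trgj4, 11.5% ± 0.809 from Trgv2 and 3.44% ± 0.0737 from Trgc1 with Trgj1 (SD, n = 3). Trgv2 lies upstream of Trgj2 on the same strand but was counted apart. With Trgv2 counted in, the wt share of Trgc2 with Trgj2 would be higher. In Stat5a-/- Trgc2 with Trgj2 made up 81.1% ± 0.342, Trgc1 with Trgj1 12.03% ± 0.528 and Trgc4 with Trgj4 6.84% ± 0.47. In Stat5b-/- Trgc2 with Trgj2 made up 92.3% ± 1.28, Trgc1 with Trgj1 6.90% ± 1.21 and Trgc4 with Trgj4 0.563% ± 0.117. For every 100 reads on Trgc2 there were 63.9 ± 3.41 reads on Trgc4 in wt, 8.29 ± 0.591 in Stat5a-/- and 0.621 ± 0.133 in Stat5b-/-. In each of these shares the 3 lines did not overlap.

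**Figure D3:**
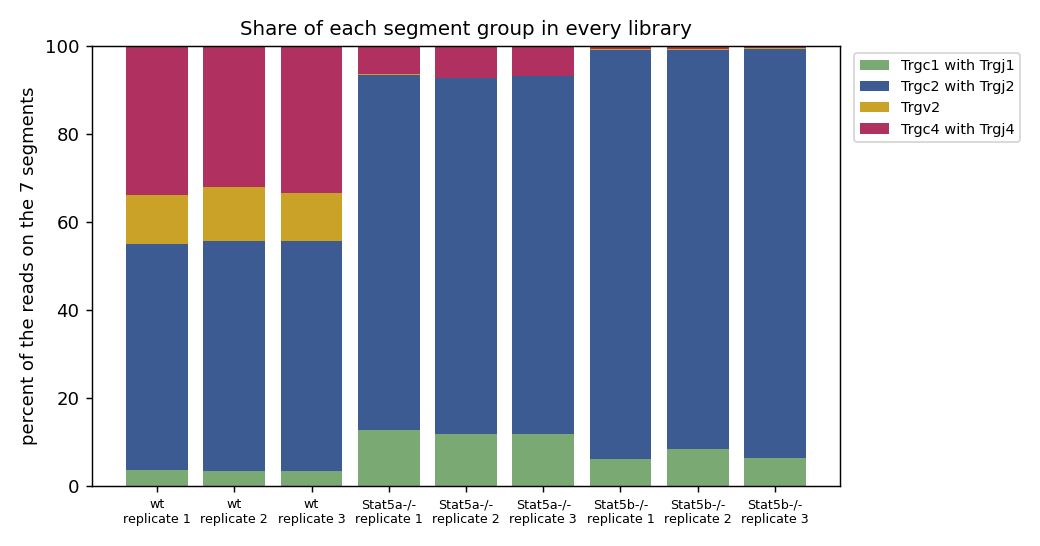
Percent of the reads on the 7 segments that fell on each constant gene with its joining segment or on Trgv2, counted apart. Stacked bars run from 0 to 100 for each of the 9 libraries. Trgc4 with Trgj4 (33.1% of wt reads on average) and Trgv2 shrink in the knockout lines, and Trgc2 with Trgj2 takes 92.3% in Stat5b-/-.

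Levels per length put the segments in an order within wt. Per kb of annotated exon Trgc2 stood at 366 CPM, Trgj2 at 276.5 CPM, Trgc4 at 216 CPM, Trgj4 at 165 CPM, Trgv2 at 158 CPM, Trgc1 at 24.9 CPM and Trgj1 at 4.35 CPM. The spread of Trgj4 covered Trgv2, so that these neighbours did not differ beyond it. The lengths include the stretches shared with other genes, 34.2% of Trgc1 and 25.4% of Trgc2 but none of Trgc4. Values of Trgc1 and Trgc2 can therefore be too low beside Trgc4. For the short joining segments the value depends on how a read at the edge is treated. Per kb of possible read starts, which is the length plus 49 bases, Trgj2 stood at 152 CPM, below Trgc4, and Trgj4 at 91.7 CPM, below Trgv2. In Stat5a-/- Trgc2 led with 381 CPM per kb of exon, followed by Trgj2 with 107 CPM, Trgc1 with 56.4 CPM, Trgc4 with 29.4 CPM, Trgj4 with 18.6 CPM, Trgj1 with 10.9 CPM and Trgv2 with 0.702 CPM. In Stat5b-/- the order was Trgc2 with 258 CPM, Trgj2 with 70.2 CPM, Trgc1 with 19.1 CPM, Trgj1 with 4.06 CPM, Trgc4 with 1.46 CPM and Trgv2 with 1.25 CPM, with Trgj4 at 0. There Trgj1 rested on 10 reads in all, and its SD of 3.08 covered Trgc4 and Trgv2. Per kb of possible read starts Trgj2 stood at 58.7 CPM in Stat5a-/-, next to Trgc1 at 53.6 CPM. In Stat5b-/- Trgj2 stood at 38.7 CPM and Trgj1 at 2.24 CPM on that scale.

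Among segments with at least 15 reads in a line, the spread over its libraries was smallest for Trgc4 in wt, with a coefficient of variation of 2.89%, and widest for Trgj4 in Stat5a-/-, with 61.4% on 44 reads in all. Trgc2, with the most reads, varied by 7.63%, 17.3% and 14.3% among wt, Stat5a-/- and Stat5b-/- libraries.

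The other 8 features of the locus had few reads. Trgc3 had 18, 35 and 34 reads in wt, 28, 38 and 19 in Stat5a-/- and 3, 1 and 4 in Stat5b-/-. It fell by 3.06 in Stat5b-/- against wt on the log2 scale (SE 0.48, edgeR adjusted p = 1.75e-04) and fell by 3.52 against Stat5a-/- (SE 0.47, adjusted p = 8.26e-05), and had a log2 fold change of 0.46 in Stat5a-/- against wt (adjusted p = 0.273). Trgv1, the variable segment next to Trgj4, had 51, 57 and 63 reads in wt, 1, 1 and 0 in Stat5a-/- and 6, 2 and 3 in Stat5b-/-. On the log2 scale it fell by 5.73 in Stat5a-/- (SE 0.49, adjusted p = 8.41e-07) and fell by 3.60 in Stat5b-/- (SE 0.35, adjusted p = 2.87e-06). Between the knockout lines its log2 fold change of 2.13 (SE 0.81) had an adjusted p of 0.0585. Of its 50-base stretches 24.6% also occur in Trgv2 or Trgv3. Trgv3, Trgv4, Trgv5, Trgv6, Trgv7 and Trgj3 had at most 4 reads in any library. Trgc3 and Trgv1 were the highest features outside the 7 segments and had more reads in wt than Trgj1, the lowest inside.

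Next, the genes around the locus were compared. Within 500 kb of its outermost features lie 12 further annotated features, 4 of which passed the filter. Epdr1, which encodes an ependymin-related protein, had 647, 884 and 694 reads in wt, 17, 21 and 8 in Stat5a-/- and 242, 283 and 255 in Stat5b-/-. It fell by 5.10 (SE 0.20, adjusted p = 5.3e-10) in Stat5a-/- and fell by 1.19 (SE 0.14, adjusted p = 1.83e-05) in Stat5b-/- on the log2 scale. Unlike Trgc4 it had its lowest level in Stat5a-/-, and the difference of 3.91 between the knockout lines passed the test (SE 0.21, adjusted p = 1.28e-08). Stard3nl, which encodes an endosomal sterol transfer protein, had 34.3 ± 2.40 CPM in wt, 37.4 ± 4.13 CPM in Stat5a-/- and 39.9 ± 6.73 CPM in Stat5b-/-, and no comparison of it passed the test (adjusted p = 0.509 and 0.204 against wt). Vps41, a subunit of the HOPS tethering complex of lysosomes, passed no comparison either, with 62.4 ± 4.001, 51.5 ± 3.27 and 56.0 ± 10.99 CPM. Gpr141b, a G-protein-coupled receptor gene at low level, had 1.24 ± 0.421, 1.25 ± 0.242 and 2.62 ± 0.837 CPM, a log2 fold change of 1.05 in Stat5b-/- against wt (SE 0.31, adjusted p = 0.014). Of the 4 tested, 1 was higher and 1 lower past both limits in Stat5b-/- against wt. Of all tested genes 10.6% were higher and 8.44% lower, and nothing is read from so few genes. Gpr141b lies at the limit. The number of flanking genes past both limits in that comparison went from 2 to 1 without wt replicate 1, without Stat5b-/- replicate 1 or without Stat5b-/- replicate 3.

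Transcripts of the recombinase that joins gamma segments were few in both knockout lines. Rag1 had 1002, 1328 and 1098 reads in wt, 2, 3 and 1 in Stat5a-/- and 7, 10 and 11 in Stat5b-/-. It fell by 8.59 in Stat5a-/- (SE 0.22, adjusted p = 2.13e-11) and fell by 6.59 in Stat5b-/- (SE 0.18, adjusted p = 3.67e-11) on the log2 scale. Rag2 had 477, 744 and 512 reads in wt, 2, 0 and 1 in Stat5a-/- and 7, 16 and 6 in Stat5b-/-, and fell by 8.53 (SE 0.37, adjusted p = 1.35e-09) and fell by 5.55 (SE 0.26, adjusted p = 2.94e-09). Like Trgv2, both had their high level in wt alone. Unlike Trgc4, both genes rose in the comparison of Stat5b-/- with Stat5a-/-, by 2.00 for Rag1 (SE 0.43, adjusted p = 0.0032) and 2.98 for Rag2 (SE 0.70, adjusted p = 0.00553). Of the 25 recombinase genes and lymphoid transcription factors examined, 3 fell in Stat5a-/- against wt (median log2 fold change -0.12), 5 rose and 2 fell in Stat5b-/- against wt (median 0.13), and 6 rose in Stat5b-/- against Stat5a-/- (median 0.38). Over all tested genes the medians were 0.01, 0.02 and 0.02, and 6.49% were lower in the first of these comparisons, 10.6% higher and 8.44% lower in the second and 4.81% higher in the last, so the 2 that fell in Stat5b-/- against wt are near the share of all genes. Pax5 and Ebf1, the B-lineage factors with the highest levels on this list, had log2 fold changes of -0.01 and -0.01 in Stat5a-/- and -0.39 and 0.25 in Stat5b-/-, within the limit of 1.

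The pathway from the interleukin-7 receptor to STAT5 was examined as the known input to the locus. Of its 20 genes, all of which were tested, 4 rose and 2 fell in Stat5a-/- against wt (median log2 fold change 0.29), 1 fell in Stat5b-/- against wt (median 0.38) and 1 rose and 7 fell in Stat5b-/- against Stat5a-/- (median -0.37). Of all tested genes 7.75% were higher and 6.49% lower in the first comparison and 8.44% lower in the second. In the last, 4.81% were higher and 6.6% lower. The single falling gene in Stat5b-/- against wt does not stand out from these shares. The list holds the knocked-out genes. Stat5a itself was the single rising gene between the knockout lines (2.75) and 1 of the 2 falling in Stat5a-/- (-1.80). Stat5b was 1 of the 7 falling between the knockout lines (-1.16). These calls say nothing about the rest of the pathway. Il7r, the receptor gene itself, named after its values were seen, had 374 ± 44.7 CPM in wt, 174 ± 20.7 CPM in Stat5a-/- and 278 ± 39.9 CPM in Stat5b-/-. It fell by 1.102 on the log2 scale in Stat5a-/- against wt (SE 0.14, adjusted p = 2.57e-05) and had a log2 fold change of -0.43 in Stat5b-/- (adjusted p = 0.0179), within the limit of 1. Cish, an inhibitor that STAT5 itself induces, rose in Stat5a-/- from 14.8 ± 1.82 to 99.3 ± 17.2 CPM, by 2.75 on the log2 scale (SE 0.23, adjusted p = 6.54e-07), and stood at 29.5 ± 10.3 CPM in Stat5b-/-. Myc, a growth regulator and STAT5 target, had 1124 ± 57.5 CPM in wt, 767 ± 78.5 CPM in Stat5a-/- and 294 ± 42.4 CPM in Stat5b-/-. It fell by 1.94 in Stat5b-/- against wt (SE 0.13, adjusted p = 5.29e-08) and had a log2 fold change of -0.55 in Stat5a-/- (adjusted p = 0.00287), within the limit of 1. Ccnd3, a D-type cyclin, had log2 fold changes of 0.94 and 0.69, and Jak3, the kinase on the common gamma chain, of 0.62 and 0.99, in Stat5a-/- and Stat5b-/- against wt. The number of genes of this pathway past both limits in Stat5b-/- against wt went from 1 to 4 without wt replicate 1 or without Stat5b-/- replicate 3.

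The knocked-out genes were checked against the labels. Stat5a had 43.1 ± 6.35 CPM in wt, 12.4 ± 1.02 CPM in Stat5a-/- and 83.7 ± 10.2 CPM in Stat5b-/-. Stat5b had 105.5 ± 1.96, 141.7 ± 15.9 and 63.4 ± 7.72 CPM. Each knocked-out gene was lowest in its own line, by -1.80 for Stat5a (SE 0.14, adjusted p = 4.69e-07) and -0.73 for Stat5b (SE 0.11, adjusted p = 1.69e-04) on the log2 scale against wt. Reads from parts of a gene outside the deletion stay in such totals, so the Stat5b total checks its label only in part.

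Of 10 constant genes of the other antigen receptors 9 were tested. In Stat5a-/- against wt 3 rose (median log2 fold change 0.44), in Stat5b-/- against wt 5 rose (median 1.14), and in Stat5b-/- against Stat5a-/- 2 fell (median 0.70). The shares of all tested genes in these directions were 7.75%, 10.6% and 6.6%, with medians of 0.01, 0.02 and 0.02. Trdc, the constant gene of the delta chain that pairs with the gamma chain, had 5.36 ± 1.65 CPM in wt, 7.49 ± 0.558 CPM in Stat5a-/- and 13.6 ± 3.38 CPM in Stat5b-/-. It rose in Stat5b-/- against wt by 1.33 (SE 0.23, adjusted p = 4.02e-04). Trbc2, a constant gene of the beta chain, rose by 1.14 (SE 0.16, adjusted p = 5.43e-05) in the same comparison, from 124 ± 20.5 to 274 ± 49.4 CPM. Ighm, the constant gene of the mu heavy chain, rose in Stat5a-/- from 1926 ± 80.5 to 4504 ± 332 CPM, by 1.23 (SE 0.10, adjusted p = 7.94e-07), and had a log2 fold change of -0.38 in Stat5b-/-, an order of the 3 lines that Trgc1 also had. Iglc3, a lambda light chain gene near 1 CPM, had log2 fold changes of 1.29 and 1.76 in Stat5a-/- and Stat5b-/- against wt (adjusted p = 0.0492 and 0.00534). Its call in Stat5a-/- was lost, and the count of constant genes went from 3 to 2, with RLE normalization, DESeq2 (adjusted p = 0.053) or the replicate block (adjusted p = 0.0524), and without any of wt replicates 1, 2 and 3, Stat5a-/- replicates 1 and 2 and Stat5b-/- replicate 1.

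All 9 libraries held both B-lineage and T-cell transcripts. The 11 B-lineage markers summed to 5875 ± 108 CPM in wt, 8042 ± 299 CPM in Stat5a-/- and 7755 ± 373 CPM in Stat5b-/-, and none was at 0. Their log2 fold changes in Stat5a-/- against wt lay between -0.01 and 0.83, within the limit of 1. In Stat5b-/- against wt Cd79a, a chain of the B-cell receptor complex, rose by 1.09 (SE 0.13, adjusted p = 2.22e-05) and Vpreb2, a surrogate light chain gene, fell by 1.90 (SE 0.10, adjusted p = 7.65e-09), and Vpreb2 also fell by 2.16 against Stat5a-/- (SE 0.10, adjusted p = 4.33e-09). Ptprc, which encodes CD45 and is not restricted to B cells, had a log2 fold change of 0.80 in Stat5b-/- against wt (SE 0.13, adjusted p = 2.32e-04), within the limit of 1.

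The 17 T-cell markers summed to 749.2 to 1015 CPM in wt, 1376 to 1580 CPM in Stat5a-/- and 1741 to 2453 CPM in Stat5b-/-, and no marker was at 0 in any line. Of these, 2 rose in Stat5a-/- against wt, 16 rose in Stat5b-/- against wt, and 3 rose and 1 fell in Stat5b-/- against Stat5a-/-. The median log2 fold changes were 0.42, 1.16 and 0.77, against 0.01, 0.02 and 0.02 over all tested genes. Of all tested genes 7.75% were higher in Stat5a-/- and 10.6% in Stat5b-/- against wt, and 4.81% were higher and 6.6% lower between the knockout lines, so the count in Stat5a-/- is near the share of all genes and that in Stat5b-/- is far above it. Thy1, a T-cell surface glycoprotein, rose in Stat5b-/- against wt by 1.11 (SE 0.13, adjusted p = 1.16e-05). Cd3e, a chain of the CD3 complex, had 153 ± 24.5 CPM in wt, 218 ± 20.7 CPM in Stat5a-/- and 336 ± 61.9 CPM in Stat5b-/-, and rose in Stat5b-/- by 1.13 (SE 0.15, adjusted p = 4.9e-05). Lck, the kinase bound to the T-cell co-receptors, rose by 1.40 in Stat5a-/- (SE 0.12, adjusted p = 1.17e-06) and by 2.56 in Stat5b-/- (SE 0.13, adjusted p = 4.14e-09). Zap70, the kinase recruited by CD3, rose by 2.34 in Stat5b-/- (SE 0.12, adjusted p = 4.86e-09). The summed T-cell markers thus ran from low in wt to high in Stat5b-/-, opposite to the summed gamma segments. The part of T-cell transcripts in the levels of the gamma segments was not tested.

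**Figure D4:**
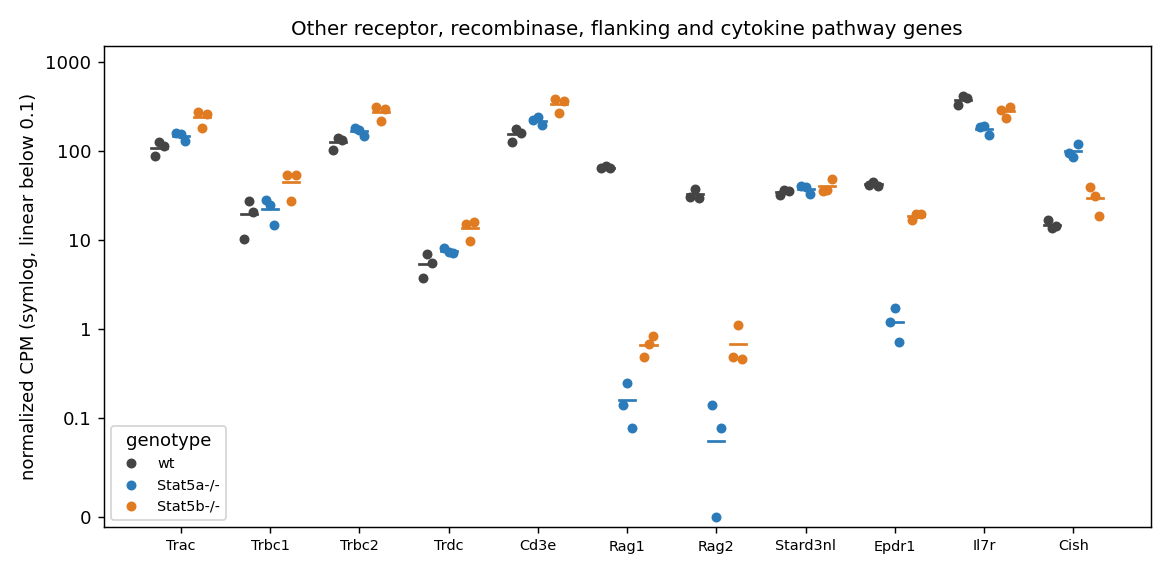
Normalized CPM (symlog axis, linear below 0.1) of constant genes of other T-cell receptor chains, Cd3e, the recombinase genes, 2 flanking genes, Il7r and Cish, with 1 point per library and a bar at the mean of each genotype. Trac, Trbc1, Trbc2, Trdc and Cd3e have their highest means in Stat5b-/-, whereas Rag1 and Rag2 stand at a mean of 64.7 and 32.5 CPM in wt and below 1 CPM on average in the knockout lines.

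Finally, the genes whose pattern came closest to the summed segments over the 9 libraries were sought among 13844 other tested genes, by the root mean square difference of centred log2 CPM. The closest 5 were Scpep1 (0.127), a serine carboxypeptidase gene, Aim2 (0.127), a sensor of cytosolic DNA, Phf10 (0.137), a subunit gene of a SWI/SNF chromatin remodelling complex, Hmgn1 (0.147), which encodes a nucleosome-binding protein, and Casc4 (0.155). The median gene differed by 0.676. Aim2, for example, had 37.6 ± 2.27 CPM in wt, 21.3 ± 4.399 CPM in Stat5a-/- and 13.4 ± 2.06 CPM in Stat5b-/-. These genes were found by their likeness, so it is a description and carries no test.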

How the data were processed

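RNA-seq counts of 9 mouse libraries were analysed, 3 for each genotype. Per the labels and the study's methods, the authors made libraries with a SENSE mRNA-Seq kit, sequenced 50 bp single-end reads, trimmed them with Trimmomatic and mapped them with STAR to GRCm38. Per the file headers they counted reads on GENCODE M13 exons per gene with featureCounts 1.5.1 and deposited the raw counts. Strand was not used, and reads on several genes or several places were dropped, so overlapping or antisense genes and near-identical segments lose reads. Genotypes came from titles, since the description of the knockout samples names wt lines. Gene symbols came from GENCODE M21 and RefSeq synonyms, which named 50376 of 50686 features.

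Counts were normalized by TMM and fitted with edgeR 4.0.16 in R 4.3.3 (filterByExpr, glmQLFit and glmQLFTest on all 9 libraries, Benjamini-Hochberg adjustment over 13852 genes), with limits of 0.05 for the adjusted p and 1 for the absolute log2 fold change. The SE was obtained from each log2 fold change and its F statistic. P-values measure the spread between technical replicates of 1 line. Gene lists were described by their counts. From each list the 2 genes with the highest mean and the 2 with the largest change in Stat5b-/- were to be named. Il7r, Trac and Trbc1 were added to the plot of other genes after their values were seen. Trgv2 was counted apart in the shares, although it lies on the strand of Trgj2 and Trgc2. The segments, the lists and the tests were chosen with earlier results of these data known. No pairing by replicate number was seen. The mean correlation of deviations was -0.09 over 9 pairs of the same number (range -0.445 to 0.216) and 0.04 over 18 others. Deviations were centred within each line, so the 2 means are not independent. Alternatives were DESeq2 1.42.0, RLE normalization, no filter or a mean of at least 10 counts, a replicate block, only the 2 genotypes compared, adjusted p alone and each library left out.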

Additional observations from a re-analysis of the deposited data

Results flagged for a closer look

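Trgc1 lay on opposite sides of wt in the knockout lines. Relative to wt, Trgc1 stood at 1.18 on the log2 scale in Stat5a-/-, where every library lay above the wt libraries, and -0.38 in Stat5b-/-, where every library lay below them. The direct comparison of Stat5b-/- with Stat5a-/- gave -1.57 (SE 0.16) on the log2 scale. Trgc1 was selected on these values, so this is a description, no p-value is given and the difference was not tested on independent data. Both comparisons share the wt libraries.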

How the results depend on the processing

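The tests rest on 1 line of each genotype, so a line and its genotype cannot be told apart. Trgj1, Trgj4 and Trgv2 have few reads in the knockout lines, which limits the precision of their ratios. Of 268 recomputed fold changes of single segments, 265 moved by less than the spread between replicates and no called one changed sign. The 3 others were Trgv2 in Stat5a-/- against wt (-8.78) and in Stat5b-/- against Stat5a-/- (1.80), both without Stat5a-/- replicate 1, and Trgj4 in Stat5b-/- against wt by DESeq2, where its libraries hold 0 reads and no fold is defined. Of 21 recomputed levels per kb, 8 moved.

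With the adjusted p alone as limit, 2739 genes were higher and 2254 lower in Stat5a-/- against wt, 3348 and 3049 in Stat5b-/- against wt, and 2269 and 2429 in Stat5b-/- against Stat5a-/-. In the same order of comparisons, 14, 16 and 17 genes of the interleukin-7 pathway and 9, 11 and 12 of the recombinase list passed that limit. So did 8 and 7 constant genes in Stat5b-/- against wt and against Stat5a-/-, and 8 and 16 T-cell markers in Stat5a-/- against wt and in Stat5b-/- against Stat5a-/-. Without a filter 2 flanking genes passed both limits in Stat5a-/- against wt. From raw reads without scaling, the log2 ratio of the summed segments was -1.107 in Stat5a-/- and -1.712 in Stat5b-/- against wt. With a replicate block 1 flanking gene in place of 2 passed in Stat5b-/- against Stat5a-/-, and 1060 genes were higher and 881 lower in Stat5a-/- against wt. The block also took the constant genes past both limits in Stat5a-/- against wt from 3 to 2, and moved no other count by over 1.5 times.

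With 1 library left out, the pathway count in Stat5b-/- against wt lay between 1 and 4 (4 without wt replicate 1 or Stat5b-/- replicate 3), the flanking genes between 1 and 2 in Stat5b-/- against wt (1 without wt replicate 1, Stat5b-/- replicate 1 or Stat5b-/- replicate 3) and between 1 and 2 in Stat5b-/- against Stat5a-/- (1 without Stat5a-/- replicate 2 or 3 or Stat5b-/- replicate 1 or 3), and the T-cell markers in Stat5b-/- against Stat5a-/- between 4 and 7 (7 without Stat5b-/- replicate 2).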

Other observations

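Markers of other cells that can carry gamma-locus transcripts were also counted. Of 10 gamma-delta T-cell markers 3 passed the filter. Of these, 2 rose in Stat5b-/- against wt (Trdc and Maf), where 10.6% of all tested genes were higher, while the log2 fold changes of all 3 lay between -0.51 and 0.66 in Stat5a-/- against wt. Il17a, a cytokine gene of one gamma-delta subset, had 0 reads in all lines, and Trdv4 had 0 in wt and Stat5a-/-. The list summed to 185.5 ± 12.9 CPM in wt, 134.6 ± 10.1 CPM in Stat5a-/- and 119.4 ± 14.3 CPM in Stat5b-/-, of which Etv5, a factor that B-lineage cells also express, made up 179 ± 14.9, 126 ± 10.9 and 103 ± 16.5 CPM.

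Of 10 NK-cell markers 8 passed the filter. In Stat5a-/- against wt 1 fell, in Stat5b-/- against wt 6 rose and 1 fell, and in Stat5b-/- against Stat5a-/- 1 fell. Of all tested genes 6.49% were lower in the first comparison, 10.6% higher and 8.44% lower in the second and 6.6% lower in the last, so single falls among 8 genes do not stand out. Nkg7, a granule gene of cytotoxic cells, rose in Stat5b-/- against wt by 1.13 on the log2 scale (SE 0.16, adjusted p = 8.25e-05), Klrk1, an activating receptor gene, rose by 1.29 (SE 0.29, adjusted p = 0.00277), Gzmb, a granzyme gene, rose by 1.30 (SE 0.35, adjusted p = 0.00904), and Klrb1c, which encodes NK1.1, fell by 2.65 (SE 0.18, adjusted p = 6.91e-08). Of 6 myeloid markers 3 passed the filter, and 2 of these, Lyz2 and Csf1r, rose in Stat5b-/- against wt by 1.07 and 1.09 (edgeR adjusted p = 7.88e-04 and 0.0136), where 10.6% of all tested genes were higher. Cd68, the myeloid marker with the highest level, had a log2 fold change of -0.24 in the same comparison (adjusted p = 0.195). Elane, a neutrophil gene, had 1 read in all in wt and 0 in both knockout lines.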
